A study of Penicillium oxalicum with 6 samples.

Results

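The genes described here are 60 genes of the filamentous fungus *Penicillium oxalicum* whose transcripts were much less abundant in the deletion strain Δ*rsrC* than in its parental strain Δ*ku70*. They were chosen from these same libraries by their FPKM (sequenced fragments per kilobase of transcript, relative to the mapped total of the library). A gene qualified when its lowest Δ*ku70* value was at least 5 and under 100 FPKM and it was not among the exclusions given below. This held for 5550 of the 9822 genes in the tables. Qualifying genes were ranked by the lowest Δ*ku70* value divided by the highest Δ*rsrC* value plus 1, and the top 60 were kept. *rsrC* itself, an alpha-glucosidase gene, both hydrophobin-type genes and a pair of gene runs on chromosomes c and f were left out of the ranking. Because this contrast chose the genes, their difference between the strains is given below as a description, with no test.

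The 3 Δ*rsrC* libraries came from mycelium in which the labels state that POX00418 was deleted in the ΔPoxKu70 background, and the study describes this mutant as lacking *rsrC* (POX_a01508). The 3 Δ*ku70* libraries came from the parental strain, which the labels give the genotype WT although it lacks *ku70*, so that both groups share this deletion. By the study's strain list both strains carry a hygromycin resistance marker, and the mutant alone also carries a geneticin resistance marker. The effect of the geneticin marker cannot be told apart from that of the deletion. Spores of both strains were cultured on glucose for 24 h and the mycelium was moved for another 24 h to an enzyme-producing medium, whose carbon source the labels give as Avicel in one field and as raw starch in another, while the study names a commercial corn starch. Whichever it was, each source gives both strains 1 medium. No label says that the libraries of a strain came from separate cultures or transformants, although the study speaks of biological replicates in its RNA-seq of other mutants, so p-values measure only the spread between these libraries, which may be technical.

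RsrC is a C2H2 zinc-finger protein, a class of transcription factor that reads DNA through small folds held by a zinc ion, and the study examined it as a regulator of starch-degrading enzymes. Filamentous fungi grow on polymers by secreting enzymes that cut them outside the cell, and they take up the released sugars and amino acids through permeases in the plasma membrane. In many fungi the genes of these enzymes and permeases are switched between food sources by zinc-finger proteins. In fungal genomes, genes that are variable between related species often lie towards chromosome ends, and genes of 1 biosynthetic route often lie side by side.

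The deleted gene served as the check of the labels. *rsrC* was listed at 0 in all 3 Δ*rsrC* libraries, against 27.1, 30.3 and 39.0 FPKM in the Δ*ku70* libraries. Read from the steps of the lowest values, the depth of the Δ*rsrC* libraries was 77.9% to 105% and that of the other Δ*ku70* libraries 82.3% to 96.9% of Δ*ku70* replicate 1. These are rough estimates, each from the FPKM ratios of only 29 to 62 genes. Pearson correlations of log2(FPKM + 1) across genes were 0.974 to 0.977 within Δ*rsrC*, 0.958 to 0.975 within Δ*ku70* and 0.903 to 0.938 between the strains. The sum of all FPKM was 1513920 ± 21453 in Δ*rsrC* and 1291930 ± 22246 in Δ*ku70* (SD, n = 3 each), a ratio of 1.17. Conidia were the other cell state that mycelium could hold, and their 3 markers *brlA*, the *rodA*-like gene and *rodB* summed to 38.2 to 94.1 FPKM in Δ*rsrC*, against 155 to 231 FPKM in Δ*ku70*. Of the 3 markers, 2 were lower without overlap between the strains, none was at 0 in any library, and *brlA*, the regulator that starts conidiation, was at 0.42 to 1.59 FPKM in Δ*rsrC* and 0.81 to 1.71 FPKM in Δ*ku70*. The part of these markers in the results below was not tested. RNA was taken from whole mycelium, so fewer hyphae that express a gene and less RNA per hypha cannot be told apart.

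Compared with Δ*ku70*, the 60 genes were lowered in Δ*rsrC*, but most were not lost. Their means ran from 0 to 42.0 FPKM in Δ*rsrC*, with a median of 7.04, and from 6.13 to 156.5 FPKM in Δ*ku70*, with a median of 36.2. The mean left in Δ*rsrC* was 0% to 37.1% of the Δ*ku70* mean, with a median of 19.9%. Of the 60 genes, 12 kept under 10% of the Δ*ku70* mean, 29 kept 10% to 25%, and 19 kept 25% or more. At the low end, 6 genes were under 1 FPKM in every Δ*rsrC* library, and 1 of them was listed at 0 in all 3. At the other end, 47 genes stayed at or above 1 FPKM in every Δ*rsrC* library, 34 at or above 5 FPKM and 18 at or above 10 FPKM. The name lost therefore fits the 6 genes under 1 FPKM and not the set as a whole.

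**Figure D1:**
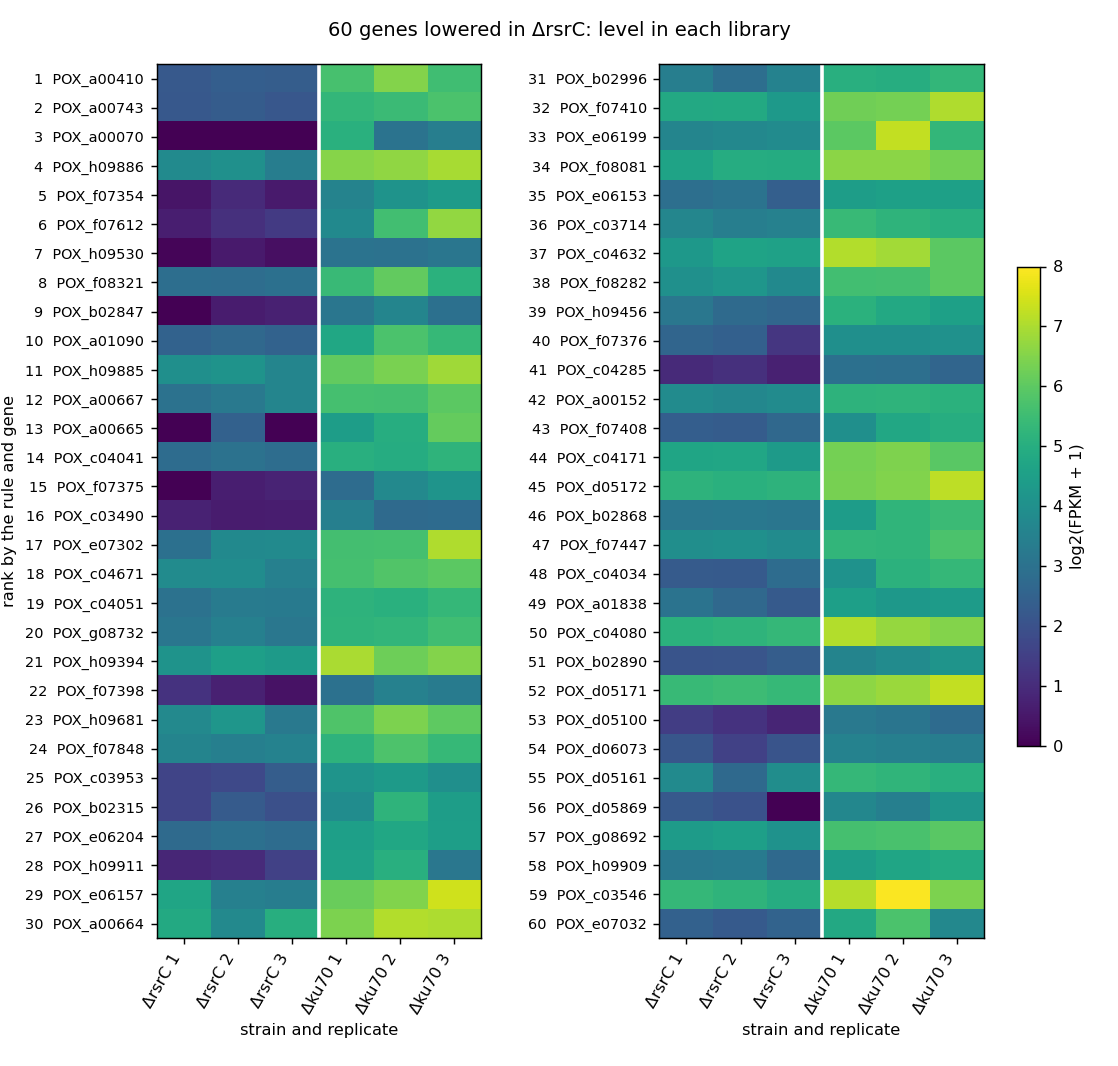
FPKM of the 60 genes (rows, in order of the ranking, with rank and gene number) in the 3 Δ*rsrC* and the 3 Δ*ku70* libraries (columns), shown as log2(FPKM + 1) by colour. Each gene is darker, that is lower, in all 3 Δ*rsrC* libraries than in any Δ*ku70* library, which the ranking required, and the Δ*rsrC* medians are near 7 FPKM against 34.3 to 38.8 FPKM in Δ*ku70*.

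In each library the level of a typical member moved in a narrow band. The median over the 60 genes was 7.02, 6.86 and 6.49 FPKM in Δ*rsrC* replicates 1, 2 and 3, against 34.3, 36.5 and 38.8 FPKM in the Δ*ku70* replicates. Over the 8605 genes that averaged 1 FPKM or more, the median was 33.9 to 35.2 FPKM in Δ*rsrC* and 39.0 to 40.4 FPKM in Δ*ku70*. The 60 genes were thus of ordinary abundance in the parent and below the ordinary gene in the mutant. Both were set in large part by the FPKM limits and the ranking that chose them. Their summed FPKM was 0.0405% ± 0.00104 of all FPKM in Δ*rsrC* and 0.223% ± 0.0201 in Δ*ku70* (SD, n = 3 each).

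In a limma fit on log2(FPKM + 1) over those 8605 genes, the log2 change of the 60 genes (Δ*rsrC* over Δ*ku70*) ran from -4.35 to -1.37 with a median of -2.14. The median was -0.13 over all genes in the fit and -0.20 over the 5550 qualifying genes. All 60 were called lower at an adjusted p under 0.05, where 25.6% of all genes in the fit and 30.9% of the qualifying genes were, and 39.3% of all genes were called in either direction. In all 60 the strains did not overlap, where 35.2% of all genes were lower without overlap. Nothing is read from these counts, since the ranking fixed them. A log2 change of -1 or lower was reached by 60 members, by 6.71% of all genes in the fit and by 6.95% of the qualifying genes, and 35 members reached -2. The standard errors of the members ran from 0.10 to 0.74 with a median of 0.23, against a median of 0.15 over all genes in the fit.

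The ranking ended without a gap. Just inside it, POX_h09909, POX_c03546 and POX_e07032 had ratios of 2.14, 2.14 and 2.12. Just outside it, the sugar transporter gene POX_c03487 had 26.4, 21.9 and 26.7 FPKM in Δ*rsrC*, against 58.9, 61.2 and 61.7 FPKM in Δ*ku70*. The next gene, POX_c04670, had 40.0, 38.4 and 33.0 FPKM in Δ*rsrC*, against 86.9, 101 and 117 FPKM in Δ*ku70*. POX_g09338 followed with 17.1, 14.2 and 16.7 FPKM in Δ*rsrC*, against 41.9, 49.1 and 38.3 FPKM in Δ*ku70*. These 3 genes had ratios that all round to 2.12, so where the set ends is a choice and not a break in the data.

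A protein annotation other than hypothetical was found for 6 of the 60 genes in the study's tables as they could be read, and 4 of these 6 encode carbohydrate-active enzymes. Another 19 genes were annotated as hypothetical proteins, and 35 were not in the part read, among them every member on chromosomes d to h. The roles of most members therefore remain unnamed here.

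The 4 enzyme genes belong to different families, and a family name alone does not give the substrate. POX_b02315 encodes an AA9 protein, a copper-dependent monooxygenase of the family that cleaves cellulose chains by oxidation. It had 2.15, 3.89 and 2.89 FPKM in Δ*rsrC*, against 13.7, 35.9 and 20.8 FPKM in Δ*ku70*. The libraries were uneven in both strains, with replicate 2 the highest in each, and the log2 change was -2.54 (SE 0.34). POX_c03490 encodes a GH30 enzyme joined to a CBM1 module, that is a glycoside hydrolase of a family that includes xylanases and beta-glucanases, carried on a module that binds cellulose. It had 0.71, 0.52 and 0.57 FPKM in Δ*rsrC*, against 9.97, 5.82 and 5.89 FPKM in Δ*ku70*. All Δ*rsrC* values were under 1 FPKM, and 8.30% of the Δ*ku70* mean was left.

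POX_c03714 encodes a GH132 protein, of the family of SUN proteins that in yeasts and moulds act on the beta-glucan of the cell wall. It had 11.7, 9.74 and 10.4 FPKM in Δ*rsrC*, against 41.3, 35.8 and 32.0 FPKM in Δ*ku70*. Its replicates were tight in both strains, and 29.1% of the Δ*ku70* mean was left. POX_c04080 encodes a glycosyltransferase assigned to GT2 and GT21, families that hold chitin synthases and ceramide glucosyltransferases. It had 33.5, 35.8 and 39.4 FPKM in Δ*rsrC*, against 133, 105 and 89.7 FPKM in Δ*ku70*. This was the most abundant of the 4 enzyme genes in both strains, with a log2 change of -1.55 (SE 0.16), the smallest of the 4 in size.

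Of the 2 permease genes, POX_c04034 was annotated as a sugar transporter, a protein that moves sugars across the plasma membrane. It had 3.92, 3.8 and 6.03 FPKM in Δ*rsrC*, against 15.7, 34.0 and 39.4 FPKM in Δ*ku70*. Δ*ku70* replicate 1 was well below the other two there. POX_c04285 was annotated as the general amino-acid permease GAP1, which in the yeast *Saccharomyces cerevisiae* takes up a broad range of amino acids. It had 0.94, 1.15 and 0.65 FPKM in Δ*rsrC*, against 6.69, 6.56 and 5.13 FPKM in Δ*ku70*. Its Δ*ku70* mean of 6.13 FPKM was the lowest of the 60 genes.

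POX_e07032 was 1 of the candidate regulatory genes downstream of RsrA, a starch-enzyme regulator, that the study deleted as genes of putative transcription factors. It had 4.55, 3.85 and 4.85 FPKM in Δ*rsrC*, against 27.3, 52.5 and 12.4 FPKM in Δ*ku70*. The Δ*rsrC* libraries were close together and the Δ*ku70* libraries 4.22-fold apart, with replicate 3 the lowest. This gene held the last place in the ranking because the ranking used that lowest library, although 14.4% of the Δ*ku70* mean was left, less than in the GH132 gene (29.1%), which ranked 36.

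**Figure D2:**
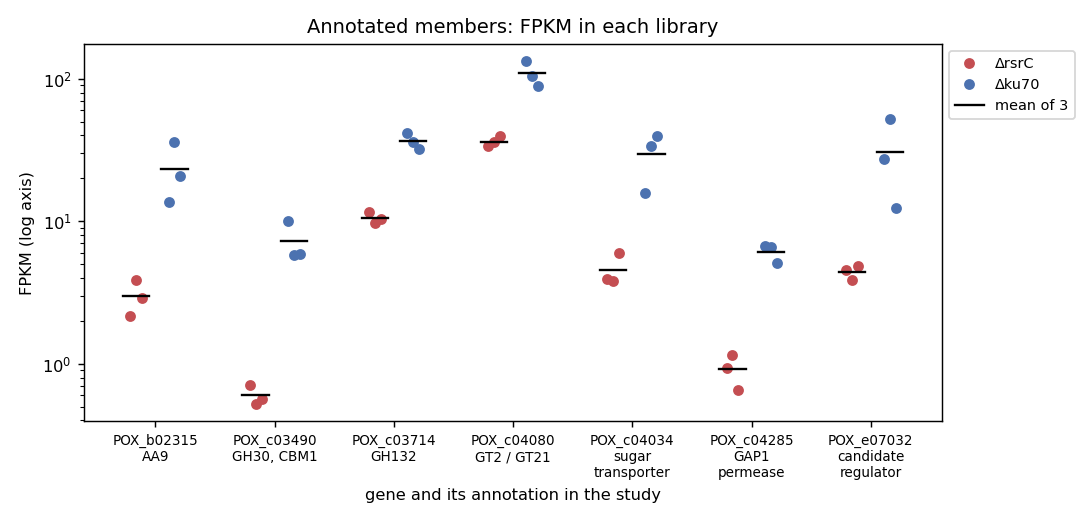
FPKM on a log axis of the 7 members with a protein annotation or a role given by the study, with 1 point per library (Δ*rsrC* left, Δ*ku70* right, replicates 1 to 3 from left to right) and a bar at the mean of 3. The strains are separate in each gene, with the lowest Δ*rsrC* values in the GH30 gene (0.52 to 0.71 FPKM) and the highest Δ*ku70* values in the glycosyltransferase gene (89.7 to 133 FPKM).

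The same fit was set against the annotation classes of the tables, which could be read only in part and list genes that the study called changed in 1 of 3 mutants, 1 of them on these samples, and so are no independent evidence. Over all genes in the fit, 25.6% were called lower and 13.8% higher. Of 267 carbohydrate-active enzyme genes in the fit, 60 were called lower and 51 higher, with a median log2 change of -0.03, and 4 were members. Of 27 sugar transporter genes, 9 were called lower and 2 higher, with a median of -0.27, and 1 was a member. Of 176 transcription factor genes in the part read, 82 (46.6%) were called lower and 7 (3.98%) higher, with a median of -0.38, and none was a member. The putative transcription factor gene POX_e07032, a member, was not in the part read, so the count of members in this class is incomplete. Among 2870 hypothetical protein genes, 846 were called lower and 471 higher, with a median of -0.15, and 19 were members.

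No gene at the head of the ranking had a named role in the part of the annotation that was read, and some were not in that part. POX_a00410, in first place, had 3.74, 4.30 and 4.14 FPKM in Δ*rsrC*, against 49.7, 89.7 and 45.7 FPKM in Δ*ku70*. POX_a00743 followed with 3.65, 4.04 and 3.53 FPKM in Δ*rsrC*, against 37.9, 43.2 and 52.2 FPKM in Δ*ku70*. These genes were evenly low in the mutant, and 6.58% and 8.42% of their Δ*ku70* means were left. POX_a00070, ranked 3, was listed at 0 in all 3 Δ*rsrC* libraries, against 33.1, 7.28 and 9.64 FPKM in Δ*ku70*. It was the 1 member listed at 0 throughout the mutant, and its Δ*ku70* level rested mostly on replicate 1.

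A further group near the head was close to 0 in the mutant. POX_f07354 had 0.36, 0.93 and 0.50 FPKM in Δ*rsrC*, against 10.99, 16.2 and 20.0 FPKM in Δ*ku70*. POX_h09530 had 0.09, 0.49 and 0.26 FPKM in Δ*rsrC*, against 7.30, 7.14 and 7.74 FPKM in Δ*ku70*. Both had a Δ*ku70* mean 26.4-fold above the Δ*rsrC* mean, and POX_h09530 was among the most even members across the Δ*ku70* libraries. POX_b02847 had 0, 0.54 and 0.68 FPKM in Δ*rsrC*, against 7.79, 11.4 and 6.78 FPKM in Δ*ku70*. POX_f07375 had 0, 0.60 and 0.74 FPKM in Δ*rsrC*, against 6.13, 12.5 and 16.7 FPKM in Δ*ku70*. With the GH30 gene and POX_a00070 these 4 were the 6 genes under 1 FPKM in every Δ*rsrC* library. At such values the +1 of the log scale holds the log2 change down, to -3.37 (SE 0.27) for POX_f07354 and -2.72 (SE 0.23) for POX_h09530.

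The largest changes on the log2(FPKM + 1) scale belonged to genes that also varied widely among the Δ*ku70* libraries. POX_a00665 was listed at 0, 4.61 and 0 FPKM in Δ*rsrC*, against 20.8, 30.6 and 67.4 FPKM in Δ*ku70*, with a log2 change of -4.35 (SE 0.74). POX_f07612 had 0.60, 1.14 and 1.59 FPKM in Δ*rsrC*, against 13.0, 46.8 and 103 FPKM in Δ*ku70*, with a log2 change of -4.31 (SE 0.67). The first of these had the largest standard error of the 60, and the second the widest Δ*ku70* spread, at 7.91-fold. The order of the changes depended on the constant added to FPKM: with 0.1 in place of 1, POX_a00070 had the largest at -7.06, followed by POX_a00665 at -6.61 and POX_f07612 at -5.13.

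Other genes among the first 15 kept a clear level in the mutant. POX_f08321 had 6.40, 6.32 and 6.78 FPKM in Δ*rsrC*, against 41.9, 66.3 and 33.6 FPKM in Δ*ku70*. POX_a01090 had 4.68, 5.51 and 4.68 FPKM in Δ*rsrC*, against 26.2, 51.9 and 40.4 FPKM in Δ*ku70*. POX_c04041 had 6.13, 7.01 and 6.19 FPKM in Δ*rsrC*, against 32.0, 29.7 and 35.6 FPKM in Δ*ku70*. In these 3 genes the mutant libraries lay within a narrow band, and 12.6% to 19.9% of the Δ*ku70* mean was left. The member with the highest Δ*ku70* mean, POX_c03546, had 38.7, 35.6 and 29.9 FPKM in Δ*rsrC*, against 136, 249 and 85.1 FPKM in Δ*ku70*. It ranked next to last, with 22.2% of its Δ*ku70* mean left.

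The RefSeq gene table of the HP7-1 assembly, used for gene order alone, placed all 60 genes, and none overlapped another gene. By gene number, 13 of the 60 lay within 3 of another member, in 6 stretches on 4 chromosomes. No like count was made for other genes, so whether 13 is more than usual was not tested. The densest was POX_a00664 to POX_a00667 on chromosome a, where 3 of 4 consecutive genes were members. POX_a00664 had 28.2, 12.7 and 31.1 FPKM in Δ*rsrC*, against 85.5, 134 and 127 FPKM in Δ*ku70*. POX_a00667 had 7, 8.32 and 11.6 FPKM in Δ*rsrC*, against 49.3, 48.1 and 61.7 FPKM in Δ*ku70*, and POX_a00665 was described above. The 3 genes differed in level, and their mutant libraries did not keep 1 order, since replicate 2 was the lowest for POX_a00664 and the highest for POX_a00665.

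The genes next to those members were then looked at. POX_a00666, between the members, had 4.37, 1.75 and 2.16 FPKM in Δ*rsrC*, against 1.77, 5.83 and 12.1 FPKM in Δ*ku70*, so that the strains overlapped (log2 change -0.80, SE 0.57). POX_a00663, next to the first member, was listed at 0 in all 6 libraries. POX_a00668, after the last member, had a log2 change of -0.34 (SE 0.28). The genes next to the 3 members were thus not called lower.

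On chromosome h, POX_h09885 and POX_h09886 were adjacent and behaved much alike. POX_h09885 had 14.8, 16.2 and 11.4 FPKM in Δ*rsrC*, against 67.0, 82.1 and 115 FPKM in Δ*ku70*. POX_h09886 had 13.2, 15.1 and 9.39 FPKM in Δ*rsrC*, against 93.3, 101 and 123 FPKM in Δ*ku70*. In both genes Δ*rsrC* replicate 2 was the highest and replicate 3 the lowest of the mutant, and Δ*ku70* replicate 3 the highest of the parent. These places were also the most frequent among the qualifying genes, at 38.8%, 41.3% and 42.4% of them. Their log2 changes were -2.54 (SE 0.22) and -2.99 (SE 0.19), while POX_h09884, on one side, had 0.09 (SE 0.10). Close to the end of the same chromosome, POX_h09909 had 8.19, 8.87 and 5.68 FPKM in Δ*rsrC*, against 21.1, 25.02 and 28.4 FPKM in Δ*ku70*. POX_h09911, the last gene of the chromosome in the table, had 0.80, 0.97 and 1.93 FPKM in Δ*rsrC*, against 23.0, 32.2 and 8.10 FPKM in Δ*ku70*. Their replicates did not move together, since Δ*ku70* replicate 3 was the highest for POX_h09909 and the lowest for POX_h09911. POX_h09908, which is no member, was lower as well (log2 change -1.25, SE 0.28, limma adjusted p = 0.0147), with 4.33, 3.38 and 1.57 FPKM in Δ*rsrC*, against 8.58, 8.88 and 7.57 FPKM in Δ*ku70*. POX_h09910, which lies between the members, was not called (log2 change -0.41, SE 0.19, limma adjusted p = 0.128).

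On chromosome f, the stretch of POX_f07408 and POX_f07410 held neighbours that moved in opposite directions. POX_f07408 had 4.25, 3.98 and 5.48 FPKM in Δ*rsrC*, against 14.8, 26.7 and 30.9 FPKM in Δ*ku70*. POX_f07410 had 27.4, 28.3 and 19.2 FPKM in Δ*rsrC*, against 76.7, 79.3 and 130 FPKM in Δ*ku70*. POX_f07409, between them and too abundant in Δ*ku70* to qualify, had 89.1, 82.3 and 71.8 FPKM in Δ*rsrC*, against 185, 183 and 197 FPKM in Δ*ku70*, and its log2 change was -1.21 with an SE of 0.11 (limma adjusted p = 0.00115). All 3 consecutive genes were therefore lower in the mutant. The next gene, POX_f07411, was higher in Δ*rsrC*, with 1159, 470.3 and 593 FPKM, against 359, 253 and 283 FPKM in Δ*ku70* (log2 change 1.21, SE 0.33, limma adjusted p = 0.0266).

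The pair POX_f07375 and POX_f07376, on the same chromosome, differed in how low the mutant was. POX_f07376 had 5.11, 4.42 and 1.38 FPKM in Δ*rsrC*, against 14.8, 14.7 and 15.5 FPKM in Δ*ku70*, while POX_f07375 was under 1 FPKM in every mutant library. The Δ*ku70* libraries were 1.05-fold apart for POX_f07376, the narrowest spread of the 60 genes, and 2.72-fold apart for POX_f07375. This pair thus did not share its spread within the parent.

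On chromosome d, POX_d05171 had 41.4, 44.1 and 40.4 FPKM in Δ*rsrC*, against 98.5, 109 and 154 FPKM in Δ*ku70*. POX_d05172 had 35.0, 32.8 and 34.9 FPKM in Δ*rsrC*, against 81.7, 88.9 and 148 FPKM in Δ*ku70*. In this pair the mutant libraries were nearly equal, and Δ*ku70* replicate 3 stood above the others in both genes. POX_d05173, the next gene and no member, had the same shape with 36.9, 36.6 and 33.4 FPKM in Δ*rsrC*, against 55.8, 54.4 and 111 FPKM in Δ*ku70* (log2 change -0.95, SE 0.27, limma adjusted p = 0.0310). POX_d05169, on the other side of the pair, was not called (log2 change 0.27, SE 0.10, limma adjusted p = 0.0616).

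**Figure D3:**
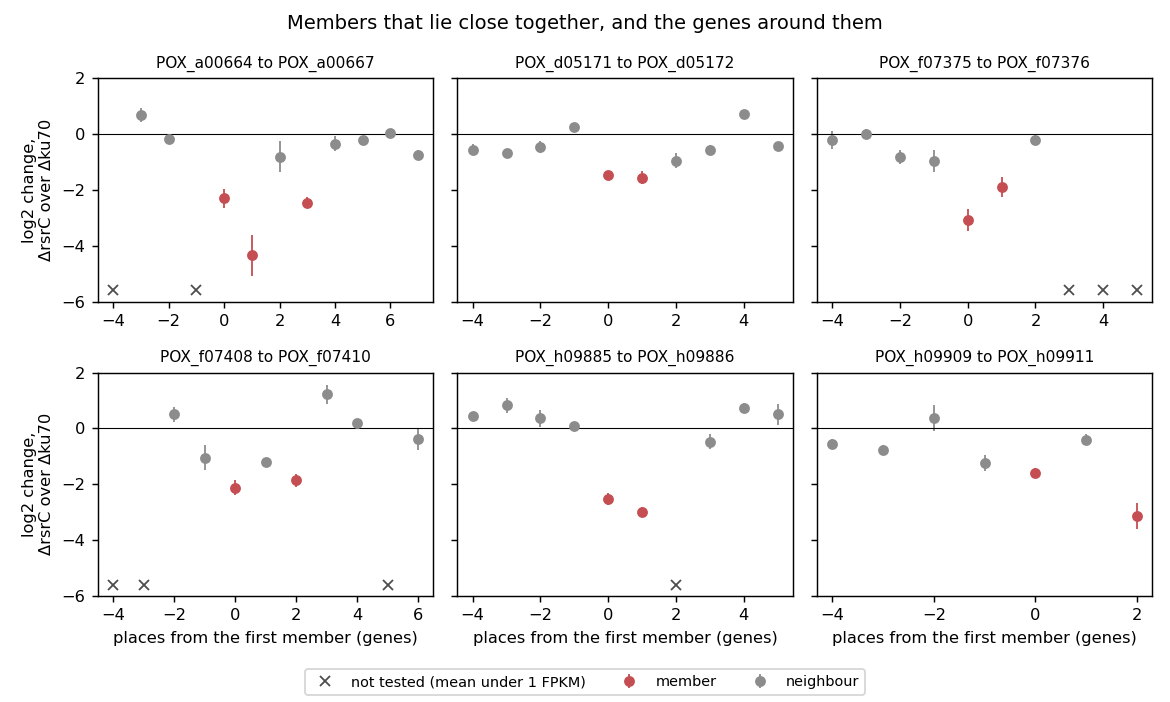
Log2 change (Δ*rsrC* over Δ*ku70*) with its standard error for members (red) and neighbouring genes (grey) in the 6 stretches, by place in the gene order from the first member. Members lie between -4.35 and -1.47, most neighbours lie between -1 and 1, and crosses at the foot of a panel mark genes with a mean under 1 FPKM, which have no value.

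The genes next to members were looked at over the whole set. Of 107 non-members at 1 place from a member, 83 were in the fit, and 24 (28.9%) were called lower and 8 (9.64%) higher, with a median log2 change of -0.32. At 2 places 29.3% were called lower, with a median of -0.20, and at 3 places 24.2%, with a median of -0.09. Over all genes in the fit the shares were 25.6% lower and 13.8% higher, with a median of -0.13. Calls of lower genes next to members were thus near the share of all genes, and the median at 1 place was lower than theirs.

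The members were unevenly placed along the chromosomes. Chromosomes c and f held 12 members each, 20% of the members apiece, where 12% and 11% of the qualifying genes lay. Chromosome h held 8 members (13.3%), against 5.27% of the qualifying genes, and chromosome g held 2 (3.33%), against 8.52%. The share of all genes in the fit that were called lower was similar on these chromosomes, at 26.2% on c, 24.9% on f, 24.9% on h and 21.9% on g.

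Near chromosome ends the members were more frequent than other genes of their level. Of the 60, 8 (13.3%) lay within 25 genes of an end, against 3.30% of the qualifying genes. Within 50 genes of an end lay 13 (21.7%), against 7.52%, and within 100 genes 22 (36.7%), against 15%. No test was made of these shares, because neighbouring genes are not independent. The genes at the extreme ends, which were chosen to be named after their values were seen, were POX_e06153, the first gene of chromosome e, and POX_h09911. POX_e06153 had 6.62, 7.19 and 4.38 FPKM in Δ*rsrC*, against 21.1, 22.4 and 22.2 FPKM in Δ*ku70*. On the same end, POX_e06157, named after its values were seen as well, had 25, 10.2 and 9.49 FPKM in Δ*rsrC*, against 71.8, 87.7 and 171 FPKM in Δ*ku70*. The first was steady in the parent and the second was not.

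**Figure D4:**
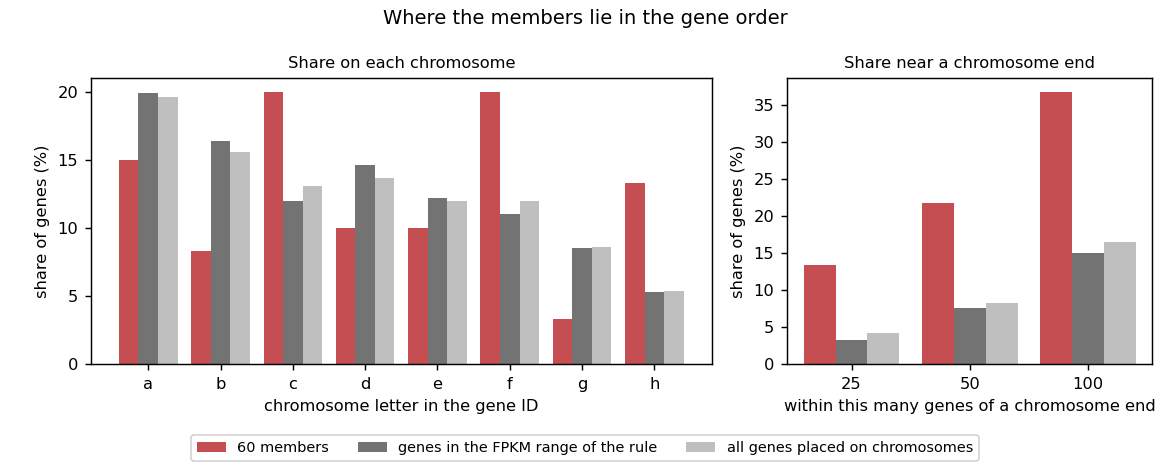
Share of the 60 members (red), of the qualifying genes (dark grey) and of all placed genes (light grey) on each chromosome, left, and within 25, 50 and 100 genes of a chromosome end, right, in percent. Members take a larger share than the qualifying genes on c, f and h and near the ends, where 36.7% of them lie within 100 genes of an end against 15% of the qualifying genes.

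In a window of 60 consecutive genes the largest number of members was 6, near the start of chromosome f from POX_f07354 to POX_f07410. Of the 35 genes of that window in the fit, 15 (42.9%) were called lower and 4 higher, with a median log2 change of -0.69. Without the members, which the ranking made low, 9 of 29 (31%) were called lower, against 25.6% of all genes in the fit. The last 26 genes of chromosome h, from POX_h09885, held 4 members, with 10 of 25 genes in the fit (40%) called lower, or 6 of 21 (28.6%) without the members. Windows that began later on chromosome f, at POX_f07375, POX_f07376 and POX_f07398 (the last named after its values were seen), held 5, 4 and 4 members. Without the members, 16.2%, 16.2% and 17.8% of their genes in the fit were called lower, below the share of all genes. Windows with 4 members, whose genes are named after their values were seen, also began at POX_e06153 and at the sugar transporter gene POX_c04034. In the window from POX_e06153, 11 of 40 other genes (27.5%) were called lower. The window from POX_c04034 held the glycosyltransferase gene POX_c04080 and the hypothetical genes POX_c04041 and POX_c04051, and 16 of its 52 other genes in the fit (30.8%) were called lower. A member also lay next to *rsrB*, the study's starch-enzyme regulator gene POX_g08691, and was picked out after its values were seen. This gene, POX_g08692, had 19.9, 21.8 and 16.04 FPKM in Δ*rsrC*, against 48.9, 51.6 and 61.4 FPKM in Δ*ku70*. *rsrB* itself had 72.1, 69.0 and 63.1 FPKM in Δ*rsrC*, against 52.3, 54.1 and 71.3 FPKM in Δ*ku70*, so that its strains overlapped. The study, by its own criterion, lists *rsrB* among the genes raised in Δ*rsrC*.

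Within a strain, which the ranking used only through a lowest and a highest library, the spread of the members was set beside that of the qualifying genes, with no test. Across the 3 Δ*rsrC* libraries, the highest value was a median of 1.38 times the lowest for the 55 members with no 0, against 1.22 times for the qualifying genes, and 11 members (20%) were at least 2-fold apart, against 3.83%. Across the 3 Δ*ku70* libraries, the median ratio was 1.51 for the members and 1.27 for the qualifying genes. There, 15 members (25%) were at least 2-fold apart, against 8.59%. In Δ*rsrC* the median member was at 6.49 to 7.02 FPKM, far below the median of all genes in the fit, so the values there are not set against genes of a like level.

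No single Δ*ku70* library was the highest or the lowest for every member. Of the 60 members, 13 were highest in Δ*ku70* replicate 1, 18 in replicate 2 and 29 in replicate 3, or 21.7%, 30% and 48.3%, against 26.4%, 31.2% and 42.4% of the qualifying genes. Replicate 1 was the lowest for 28 members (46.7%), against 32.8% of the qualifying genes. Among the 15 members at least 2-fold apart, replicate 3 was the highest for 8, replicate 2 for 5 and replicate 1 for 2, and replicate 1 was the lowest for 9. Some of these genes peaked in replicate 3, such as POX_f07612, and others in replicate 2, such as the AA9 gene and POX_e07032. POX_e06199, named after its values were seen, had 11.5, 12.4 and 13.5 FPKM in Δ*rsrC*, against 62.6, 154 and 37.9 FPKM in Δ*ku70*. It was even in the mutant and 4.07-fold apart in the parent, with replicate 2 the highest.

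**Figure D5:**
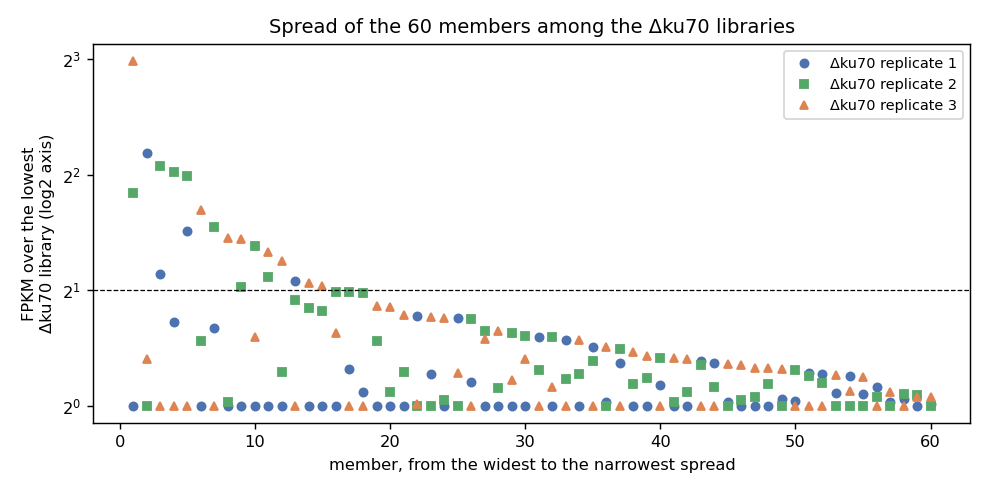
FPKM of each member in the 3 Δ*ku70* libraries over its lowest Δ*ku70* library, on a log2 axis, with members ordered by this spread and the dashed line at 2-fold. The 15 members above the line peak in different replicates, and the widest is POX_f07612 at 7.91-fold.

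The order of the strains was looked at in libraries that the ranking had not used. The ranking was repeated on 5 libraries, and each set of 60 genes was read in the library left out, against all 3 libraries of the other strain. With a Δ*rsrC* library left out, 59 of 60 genes were below every Δ*ku70* library in it, for each of the 3 libraries, where 50% to 54.2% of the qualifying genes were. With Δ*ku70* replicate 1, 2 or 3 left out, 57, 59 and 53 of 60 genes were above every Δ*rsrC* library in it. Of the genes that qualified on the remaining Δ*ku70* libraries, 53.3%, 54.1% and 55.1% were. The libraries of the other strain had still helped to choose these genes, so this is a partial check. The genes that qualified each time include genes with no difference in the other 5 libraries, so their shares are no matched background. The sets were not the same genes throughout, with 48 to 53 of the 60 members kept when a Δ*rsrC* library was left out. With Δ*ku70* replicate 1, 2 or 3 left out, 41, 53 and 38 members were kept, so that membership depended most on Δ*ku70* replicate 3. Over these and 6 other repeats of the ranking, 19 members were chosen every time, and 18 of them stood in the first 30 places. The repeat with a floor of 10 FPKM drops by design every member with a lowest Δ*ku70* value under it.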

How the data were processed

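RNA-seq libraries of *P. oxalicum* mycelium were read from 1 table per library. The authors deposited FPKM for 9822 genes, rounded to 2 decimals, with no replicates pooled. The study's methods name BGISEQ sequencing, BWA, Bowtie2, RSEM and NOISeq, whereas the submitters' processing notes name bcl2fastq and HISAT2, and the study mapped its reads to the genome of strain HP7-1. No assembly version is tied to the tables in the sources used here. FPKM values fall when a few other genes take more of the fragments, and they carry no counts, so depth in fragments is unknown and no counting interval is given.

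Groups came from titles and genotype labels. The members, the gene lists and the rules were chosen with earlier results of these data known. For the background, log2(FPKM + 1) of the 8605 genes averaging 1 FPKM or more was compared with limma 3.58.1 in R 4.3.3 (lmFit, eBayes with trend, two-sided, Benjamini-Hochberg adjustment over all 8605 genes, threshold 0.05), and the code was tested on simulated data. A log2 change is on this scale, which understates the change of low genes. Genes named were the first 15, those with an annotation or a role in the study, members within 3 gene numbers of another with the genes between or next to them, 3 on each side of the end of the ranking, any at 0 throughout Δ*rsrC*, and those with the highest and lowest Δ*ku70* mean. Genes named otherwise are marked in the text. From the study's supplement only gene numbers and protein annotations were read; its fold changes and p-values were not used. The RefSeq table of assembly ASM172317v3 matched 9718 of the 9822 gene numbers and gave the order of genes only. Promoter and protein sequences were not analysed here. Alternatives were another pseudocount, other filters and scalings, no trend, a replicate block, each library left out and changed forms of the ranking.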

Additional observations from a re-analysis of the deposited data

How the results depend on the processing

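Every member tested stayed lower in Δ*rsrC* in each of the 14 alternative fits, with log2 changes of -1.16 or lower. The ranking had chosen the members by this contrast in the same libraries, so this is no independent support. The count called lower was 60 except for 59 at a pseudocount of 0.1 and 59 without Δ*ku70* replicate 1 (POX_d05869 both times, named after its values were seen, at 3.66, 3.03 and 0 FPKM in Δ*rsrC*, against 12.1, 10.01 and 17.0 FPKM in Δ*ku70*), and 54 of 54 tested where a mean of 5 FPKM was required. The median log2 change of the members was -2.32 at a pseudocount of 0.1, -2.35 with equal sums per library (TPM), -2.01 with median-ratio scaling and -2.01 with quantile normalization, and between -2.16 and -2.05 with 1 library left out. The median over all genes moved with scaling too, to -0.35 with TPM, near 0 (-0.0028) with median-ratio scaling and -0.04 with quantile normalization, against -0.13 as deposited. Accordingly 2202 genes were called lower and 1184 higher as deposited, 3653 and 742 with TPM, 1490 and 1623 with median-ratio scaling, and 1479 and 1373 with quantile normalization. The count of genes that differed was 3386 as reported and 2126 to 3476 with 1 library left out, the lowest without Δ*rsrC* replicate 1. With the replicate number as a block it was 2213, in a fit that estimates the spread from fewer degrees of freedom. The deviations of libraries with the same number had correlations of 0.0046, -0.13 and -0.24. These values show no shared signal, but they cannot tell whether such libraries were prepared together. Repeating the ranking kept 39 of the 60 members with a constant of 5 in place of 1, 40 with group means, 50 with a floor of 10 FPKM, 52 with a constant of 0.1, 55 with TPM and 56 with median-ratio scaling, and 38 to 53 with 1 library left out, the lowest without Δ*ku70* replicate 3. The floor of 10 FPKM removes only members with a lowest Δ*ku70* value under it, so the count of 50 was fixed in advance. With values only as FPKM, the counting error of genes under 1 FPKM is unknown.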
